A study of Mus musculus with 11 samples.

Results

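The effect of a high fat sugar (HFS) diet on hepatocytes lacking functional *Xbp1* was examined by RNA-Seq in 5 of 11 deposited hepatocyte libraries. They were chosen by their labelled genotype and diet: 3 libraries from HFS-fed knockout mice (KO HFS) and 2 from chow-fed knockout mice (KO chow). The knockout mice, *Xbp1* LKO, are adult C57BL/6 males in which Cre driven by the albumin promoter deletes part of a floxed *Xbp1* gene in hepatocytes, so both groups carry the deletion and differ in diet. The floxed controls, *Xbp1* fl/fl (flox), keep the gene intact and were given the same diets, with 3 chow and 3 HFS libraries. The HFS diet, a purified Western diet with fructose and glucose in the drinking water, was fed for up to 6 weeks as a dietary model of steatohepatitis, and chow-fed mice received standard feed and water. Chow libraries were made from 1 mouse and HFS libraries from 2 mice combined, so diet and pooling cannot be told apart. Hepatocytes were purified by Percoll density centrifugation.

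XBP1 is the transcription factor made after IRE1, a sensor of the endoplasmic reticulum (ER), splices its messenger RNA. It raises the folding and secretory capacity of the ER and, in hepatocytes, also supports lipid synthesis and very low density lipoprotein secretion. Dietary cholesterol normally holds back the ER-bound SREBP2 factor, which otherwise turns on the genes of cholesterol synthesis, while oxysterols activate LXR, which turns on sterol efflux and *Srebf1*.

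Total counts of the 5 libraries were 19191032 to 23888401, and 13303 genes had enough counts in the 11 libraries to be tested. Whole-gene *Xbp1* was 95.7 and 128 CPM (counts scaled to the normalized size of each library) in KO chow and 117, 97.3 and 135 CPM in KO HFS, below the means of 205 CPM in flox chow and 279 CPM in flox HFS (whole-gene counts include the parts that the deletion spares). *Alb* and the other 19 hepatocyte markers were measured in every library, and *Alb* took 3.72% and 1.67% of counts in the 2 KO chow libraries and 3.33% to 5.40% in KO HFS. The KO chow libraries stood apart from each other: their counts differed with a chi-square per degree of freedom of 101.6, against 46.8 to 64.5 between pairs of KO HFS libraries, where counting error alone gives about 1. KO chow 2 had 326 CPM of *Lbp*, an acute phase protein that binds bacterial lipopolysaccharide, and 132 CPM of *Ddit3*, the stress factor CHOP. KO chow 1 had 127 and 23.6 CPM. In KO HFS *Lbp* had 97.0, 103 and 68.7 CPM. High acute phase values were not confined to KO chow 2. *Saa1*, another acute phase gene, had 31.0 and 1873 CPM in KO chow and 60.9, 116 and 1522 CPM in KO HFS. It reached 2243 CPM in flox chow 1 and 3430 CPM in flox HFS 2.

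By the quasi-likelihood test of edgeR, with p adjusted by Benjamini-Hochberg at 0.05, 8 of 13303 genes (0.0601%) differed between KO HFS and KO chow, 6 higher on HFS (0.0451%) and 2 lower (0.015%). Both genes that fell, *Fdps* and *Pmvk*, encode enzymes of the mevalonate pathway, which makes the isoprenoid precursors of cholesterol. The 6 that rose were *Tent5a*, *Cyp2a4*, *Rtn4*, *Frmd4a*, *Cyp2d40* and *Trim30a*. At an unadjusted p under 0.05 there were 1683 genes (12.7%), and DESeq2 called 213 (1.6%), of which 153 were higher (1.15%) and 60 lower (0.451%), with all 8 edgeR calls among them. The number of calls depended on single libraries: the test called 36 genes without KO chow 1, 3 without KO chow 2, 0 without KO HFS 1, and 2 without either of the other HFS libraries. In a fit of the 5 KO libraries alone, edgeR called 0 genes.

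**Figure D1:**
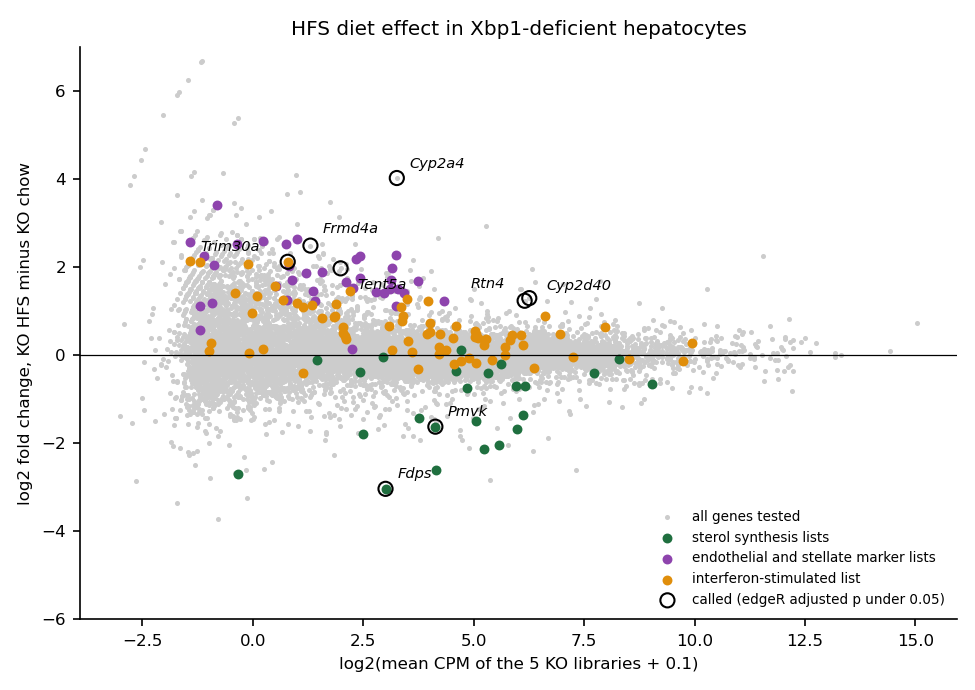
Log2 fold change (KO HFS minus KO chow, y axis) of 13303 genes against log2 of their mean CPM over the 5 KO libraries plus 0.1 (x axis), with gene lists coloured and the 8 called genes circled. Of the 24 sterol synthesis genes (green) 23 lie below 0, with *Fdps* lowest at -3.04, and endothelial and stellate cell markers (purple) lie above 0.

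*Fdps*, farnesyl diphosphate synthase (chromosome 3, 89093588 to 89101959, minus strand, GRCm38), had 14.8 and 18.7 CPM in KO chow and 2.93, 0.781 and 2.42 CPM in KO HFS. The HFS libraries were all far below the chow libraries. It fell by 3.04 on the log2 scale (standard error 0.40, adjusted p = 0.0262, edgeR quasi-likelihood test with Benjamini-Hochberg adjustment). *Pmvk*, phosphomevalonate kinase (chromosome 3, 89454541 to 89469013, plus strand), had 36.5 and 22.2 CPM in KO chow and 10.6, 8.11 and 9.81 CPM in KO HFS. Its groups did not overlap, although the chow libraries were well apart, and its log2 fold change was -1.63 (standard error 0.22, adjusted p = 0.0292, edgeR). Leaving out single libraries moved the *Pmvk* change from -1.93 to -1.23.

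The same direction ran through sterol synthesis. Of 11 mevalonate pathway genes tested, 10 were lower on HFS and 6 had no overlap between groups (54.5%, where 14.4% of all genes tested were lower without overlap); 2 passed the edgeR test and 5 the DESeq2 test. The median log2 fold change of the list was -0.70, beside a median of -0.0027 over all genes. All 13 genes tested from squalene to cholesterol were lower, 9 without overlap (69.2%), with a median of -0.76; 0 passed in edgeR and 7 in DESeq2. Together these lists held 12 of the 60 genes that DESeq2 called lower. Medians of both lists stayed between -0.87 and -0.68 when single KO libraries were left out. *Idi1*, which isomerises isopentenyl diphosphate, was sparse, with 1.88 and 0.918 CPM in KO chow against 0.489, 0.0372 and 0.115 CPM in KO HFS, and did not pass in edgeR (log2 fold change -2.71, adjusted p = 0.186).

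*Sqle*, squalene epoxidase, had 35.1 and 35.5 CPM in KO chow and 8.47, 2.42 and 6.56 CPM in KO HFS. The chow libraries were nearly equal and the HFS libraries spread more than 3-fold below them (log2 fold change -2.61, edgeR adjusted p = 0.121, DESeq2 adjusted p = 0.00985). *Nsdhl*, a sterol dehydrogenase, had 99.2 and 40.4 CPM against 23.5, 11.9 and 12 CPM (log2 fold change -2.14, edgeR adjusted p = 0.0987). For *Cyp51*, lanosterol demethylase, values were 109 and 64.1 CPM on chow and 33.4, 12.5 and 17.4 CPM on HFS. Each of these genes was lower in every HFS library than in either chow library. Near the other end of the pathway's range, *Fdft1*, squalene synthase, had 62.5 and 43.8 CPM on chow and 45.5, 44.6 and 48.8 CPM on HFS, so its groups overlapped (log2 fold change -0.20).

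**Figure D2:**
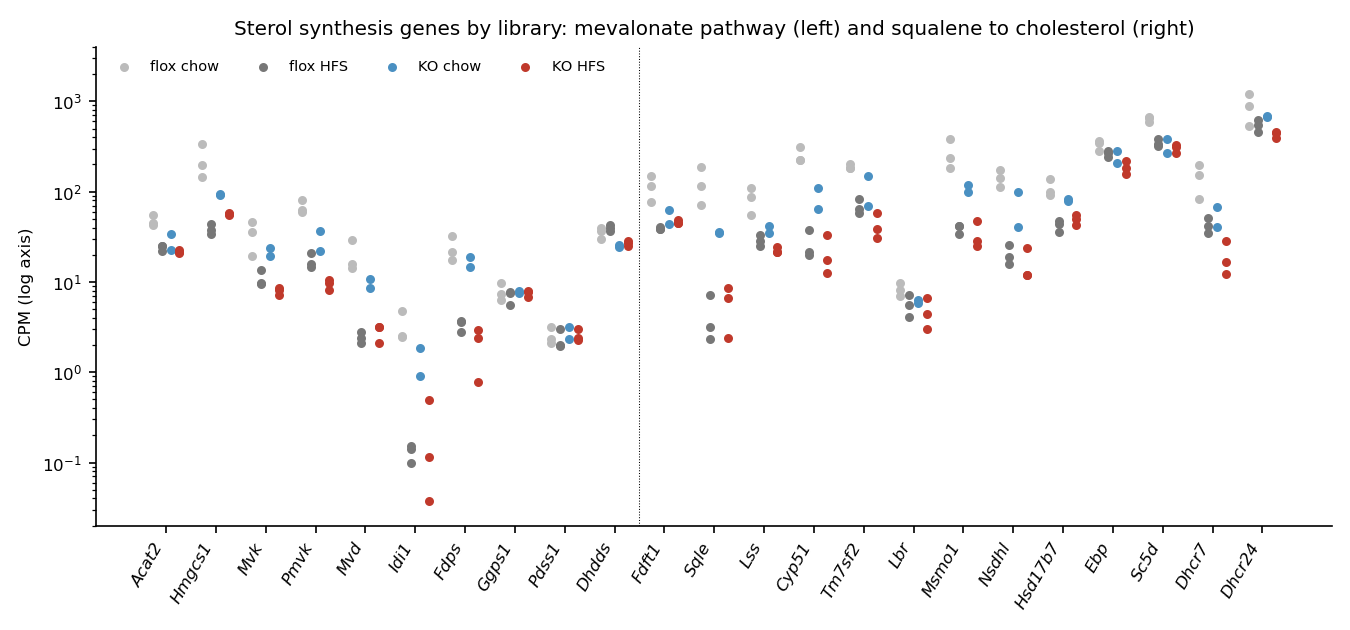
CPM (log axis) of 23 sterol synthesis genes in each of the 11 libraries, with the mevalonate pathway left of the dotted line and the steps from squalene to cholesterol right of it. Points are libraries; KO HFS values (red) overlap flox HFS values (dark grey) in 13 genes and lie wholly below them in 8, while KO chow values (blue) lie below flox chow values (light grey) in 18 of them.

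In the intact genotype the same genes were further apart between diets. Of the 24 sterol genes, 21 had a smaller fall in KO than in flox, where edgeR called 15 of them lower, beside 39 of all genes tested (0.293%), and the medians in flox were -1.63 and -1.56 for the 2 lists. Both KO chow libraries were below every flox chow library in 19 of 24 genes, with a median log2 ratio of group means of -0.99. KO HFS and flox HFS libraries overlapped in 13 of 24, with KO HFS wholly below in 9 and wholly above in 2. The median ratio on HFS was -0.28. How often the genotypes separate in this way over all genes tested was not counted. The interaction of genotype and diet had an unadjusted p under 0.05 for 10 of the 24, all with the smaller fall in KO, against 6.13% of all genes tested, but called 0 genes after adjustment in edgeR (816 at an unadjusted p under 0.05) and 29 in DESeq2 (0.218%). *Hmgcs1*, HMG-CoA synthase, had 93.3 and 91.4 CPM in KO chow and 57.3, 58.1 and 55.1 CPM in KO HFS. Its libraries were tight within each group and did not overlap, yet the log2 fold change of -0.70 missed the edgeR threshold (adjusted p = 0.314), and in flox it was -2.56 (mean 228 CPM on chow and 38.6 CPM on HFS). The difference between genotypes for *Hmgcs1* was 1.86 (edgeR adjusted p = 0.603, DESeq2 adjusted p = 0.00236).

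Promoter windows of 300 bases (250 before a start and 50 from it on, RefSeq, GRCm38.p6) were matched for 19 of the 24 sterol genes and searched on both strands. TCACNCCAC, a core of the sterol regulatory element bound by SREBP, was found in 1 of the 19, *Hmgcs1*, beside 1.44% of all 27025 genes with a window. CCAAT, the box bound by NF-Y, was found in 17 of 19 (89.5%), beside 41.1% of all genes. Windows of *Hmgcs1* (chr13:119690101-119690400, plus strand) and *Nsdhl* (chrX:72918271-72918570, plus strand) are shown 5′ to 3′ because the first holds the only sterol element match of the lists and the second shows the CCAAT boxes, of which each of these windows has 4. Capitals mark the sterol element in *Hmgcs1* (first base at -137) (its CCAAT boxes are not marked) and the CCAAT boxes on either strand in *Nsdhl* (first bases at -109, -20, 9 and 35); matches of different motifs did not overlap in these windows. A match describes letters and is not evidence of binding.
Hmgcs1: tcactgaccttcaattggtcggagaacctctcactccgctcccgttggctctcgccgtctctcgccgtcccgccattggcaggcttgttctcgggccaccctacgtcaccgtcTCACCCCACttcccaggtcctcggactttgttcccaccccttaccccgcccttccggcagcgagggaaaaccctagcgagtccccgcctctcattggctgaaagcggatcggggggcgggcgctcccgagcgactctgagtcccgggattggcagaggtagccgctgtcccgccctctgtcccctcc
Nsdhl: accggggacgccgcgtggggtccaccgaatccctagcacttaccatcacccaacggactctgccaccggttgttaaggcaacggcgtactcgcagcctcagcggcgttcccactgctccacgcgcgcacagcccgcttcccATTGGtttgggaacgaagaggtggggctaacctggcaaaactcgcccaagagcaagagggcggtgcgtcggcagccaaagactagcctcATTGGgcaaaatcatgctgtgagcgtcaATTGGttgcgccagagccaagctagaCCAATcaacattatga

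Genes that control sterol levels had values in both directions, with 8 higher and 10 lower of 18 tested and a median of -0.04; edgeR called 0 and DESeq2 called 4. *Abcg1*, an LXR-driven sterol exporter, had 1.02 and 0.612 CPM in KO chow and 3.06, 6.14 and 2.61 CPM in KO HFS (log2 fold change 2.26, edgeR adjusted p = 0.157, DESeq2 adjusted p = 0.00168). *Abca1*, which loads cholesterol onto apolipoprotein A-I, had 215 and 195 CPM against 350.3, 447 and 260.5 CPM. *Srebf1*, the SREBP gene of fatty acid synthesis and an LXR target, had 147 and 52.4 CPM on chow and 319.6, 415 and 220.2 CPM on HFS. All 3 were higher in every HFS library than in either chow library, and none passed in edgeR.

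Among the genes that rose, *Tent5a* (chromosome 9, 85320439 to 85327348, minus strand), a non-canonical poly(A) polymerase, had 1.62 and 1.18 CPM in KO chow and 6.64, 4.95 and 4.95 CPM in KO HFS. The HFS libraries were all at least 3 times the higher chow library in level. Its log2 fold change was 1.97 (standard error 0.23, adjusted p = 0.0225, edgeR), against -0.28 in flox, where means were 8.06 CPM on chow and 6.65 CPM on HFS. *Rtn4* (chromosome 11, 29692947 to 29744331, plus strand), a reticulon that shapes ER tubules and a listed target of IRE1-dependent decay, had 43.7 and 34.8 CPM on chow and 85.2, 105 and 87.1 CPM on HFS. Again the groups were well apart (log2 fold change 1.23, standard error 0.15, adjusted p = 0.0227, edgeR; 0.28 in flox). *Rtn3*, its relative, overlapped between diets at 111 and 104 CPM against 124, 124 and 100.1 CPM.

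*Cyp2a4*, a female-biased steroid hydroxylase (chromosome 7, 26307169 to 26315088, plus strand), showed the highest fold among the 8 genes. It had 0.853 and 1.00 CPM in KO chow and 18.8, 16.8 and 9.89 CPM in KO HFS, from 20 and 23 counts against 462, 453 and 258 counts. Every HFS library was far above both chow libraries (log2 fold change 4.02, standard error 0.48, adjusted p = 0.0225, edgeR), and in flox the same diet gave 1.15 with means of 0.558 and 1.25 CPM. *Cyp2a5*, a near-identical paralog, had 37430 and 20745 counts on chow and 32064, 42415 and 33993 on HFS, with overlapping groups (log2 fold change 0.16). Per kilobase of exon, *Cyp2a5* had 437 to 770.3 CPM and *Cyp2a4* 0.491 to 10.8 CPM in the 5 libraries, and where reads are shared between the paralogs the level of *Cyp2a4* is uncertain. Its counts were 0.0534% and 0.111% of the *Cyp2a5* counts in KO chow and 1.44%, 1.07% and 0.759% in KO HFS, so the ratio of the paralogs differed between diets as well. *Cyp2b9*, another diet-responsive cytochrome, had 3.92 and 2.93 CPM on chow and 11.5, 5.99 and 13.7 CPM on HFS (log2 fold change 1.60, edgeR adjusted p = 0.339), and in flox it was 5.49. *Cyp2b10* overlapped in KO (log2 fold change -0.85). Over the 6 tested genes of the Cyp2a and Cyp2b list, 5 were higher and 1 lower, with 3 not overlapping (50%, beside 16.7% of all genes higher without overlap).

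*Cyp2d40* (chromosome 15, 82759833 to 82764183, minus strand), a cytochrome P450 of the Cyp2d cluster, had 36.3 and 45.5 CPM in KO chow and 123, 89.6 and 87.6 CPM in KO HFS (log2 fold change 1.29, adjusted p = 0.0457, edgeR). It also passed in flox, at 0.94 (adjusted p = 0.0414, edgeR). Its neighbours share sequence: *Cyp2d26* had a log2 fold change of 0.57, *Cyp2d9* 0.42, *Cyp2d10* 0.28 and *Cyp2d22* 0.14, and none of them passed. *Frmd4a* (chromosome 2, 4017717 to 4614043, plus strand), a scaffold protein of cell junctions, was low in every library, with 0.640 and 0.612 CPM on chow and 3.1, 3.94 and 3.57 CPM on HFS. The chow libraries were close together and the HFS libraries clearly above them (log2 fold change 2.49, adjusted p = 0.028, edgeR), while *Frmd4b* overlapped (log2 fold change 0.09).

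*Trim30a* (chromosome 7, 104409025 to 104465193, minus strand), an interferon-induced ubiquitin ligase that damps Toll-like receptor signalling, had 0.683 and 0.393 CPM in KO chow and 2.28, 2.42 and 2.38 CPM in KO HFS. The HFS libraries were almost the same and all above chow (log2 fold change 2.12, standard error 0.32, adjusted p = 0.046, edgeR). In flox the means were 1.59 and 2.23 CPM (log2 fold change 0.49), so the HFS libraries of the genotypes overlapped and both KO chow libraries were below every flox chow library. The latter held for 5 of the 8 called genes, *Tent5a*, *Rtn4*, *Frmd4a*, *Pmvk* and *Trim30a*. All but *Pmvk* were called higher on HFS from the same KO chow values, which favours low values on chow. The share over all genes was not counted, so this count is only a description. On HFS, every KO library was above every flox library for *Cyp2a4*, *Rtn4* and *Frmd4a*, and below for *Pmvk*. For *Tent5a*, *Fdps*, *Cyp2d40* and *Trim30a* the genotypes overlapped on HFS. Calling genes as higher also favours high KO HFS values, and the share over all genes was not counted here either. Diet effects had the same sign in flox for 7 of the 8, with *Tent5a* the exception. Conversely, of 57 genes called by edgeR in flox (0.428%; DESeq2 called 181, 1.42%, of which 110 were lower, 0.861%), 56 had the same sign and 41 the same direction without overlap in KO, and 3 were called in both, *Fdps*, *Pmvk* and *Cyp2d40*. Over all genes tested 59.1% had the same sign, and in KO 16.7% were higher and 14.4% lower without overlap. The comparisons share no library.

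**Figure D3:**
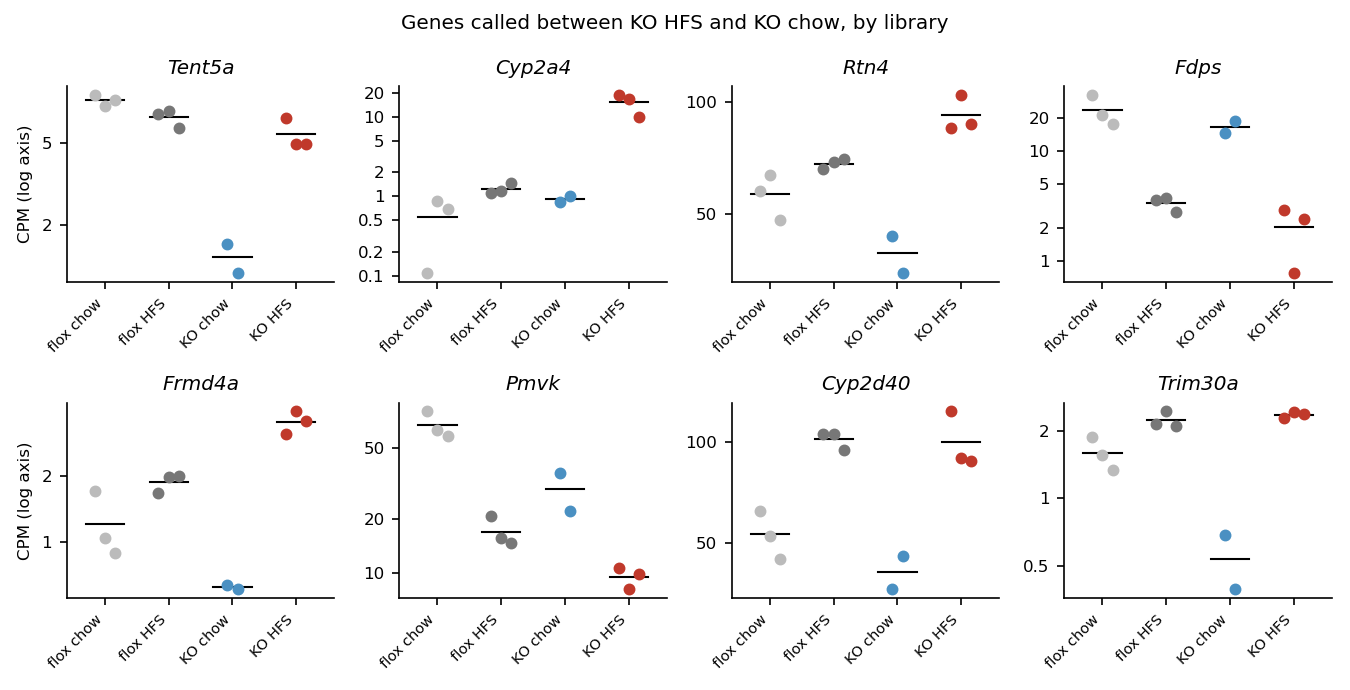
CPM (log axis) of the 8 genes called between KO HFS and KO chow in each of the 11 libraries, by group, with black lines at group means. KO chow libraries (blue) and KO HFS libraries (red) do not overlap in any panel and *Cyp2a4* has the widest gap, from 0.929 to 15.2 CPM in group means.

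Interferon-stimulated genes shared the direction of *Trim30a*. Of 70 tested, 58 were higher on HFS and 37 had no overlap (52.9%, beside 16.7% of all genes), with 1 edgeR call, 8 DESeq2 calls and a median log2 fold change of 0.47, against 0.18 in flox. The median stayed between 0.40 and 0.56 without single libraries. *Samd9l*, an antiviral factor, had 10.3 and 6.86 CPM on chow and 20.3, 22.5 and 17.7 CPM on HFS (log2 fold change 1.23, edgeR adjusted p = 0.137, DESeq2 adjusted p = 0.00107). *Ifi27*, an interferon-induced mitochondrial protein, had 67.7 and 62.7 CPM against 156, 92.2 and 114 CPM. *Dtx3l*, a ubiquitin ligase, had 57.6 and 53.1 CPM against 79.8, 76.8 and 70.6 CPM, a small but non-overlapping difference (log2 fold change 0.45). Members with no overlap in the other direction were *Psme1* and *Irf8*. Promoter windows matched 55 of the list, and the core of the interferon-stimulated response element, searched as GAAA, any pair of bases and GAAA again, was found on either strand in 28 of them (50.9%), beside 3.99% of all genes. Among the 28 were *Ifit1bl1*, *Oas1g*, *Oas3* and *Tgtp2*, which were not tested for expression. *Trim30a*, the called gene of the list, has 2 windows with 1 match each. The window at chr7:104465144-104465443 (minus strand) is shown 5′ to 3′ with its match in capitals (first base at -36).
Trim30a: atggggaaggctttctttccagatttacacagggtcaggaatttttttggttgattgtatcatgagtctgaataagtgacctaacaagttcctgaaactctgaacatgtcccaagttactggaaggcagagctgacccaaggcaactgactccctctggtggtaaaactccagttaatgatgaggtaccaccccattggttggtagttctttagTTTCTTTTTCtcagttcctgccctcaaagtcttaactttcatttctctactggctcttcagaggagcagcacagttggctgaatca

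Markers of sinusoidal endothelial cells, stellate cells and macrophages were higher in KO HFS than in KO chow with 1 exception. In bulk RNA, fewer cells of a type and less RNA per cell cannot be told apart. All 19 sinusoidal endothelial markers tested were higher without overlap (beside 16.7% of all genes, of which DESeq2 called 1.15% higher; median log2 fold change 1.58, DESeq2 calls 15, edgeR calls 0), and their summed level was 62.0 and 48.8 CPM in KO chow and 226, 130.0 and 126 CPM in KO HFS. All 17 stellate cell and fibroblast markers were higher, 14 without overlap (median 2.04, DESeq2 calls 5), at 21.4 and 21.2 CPM against 93.4, 55.6 and 47.4 CPM. Of 18 Kupffer cell and macrophage markers 17 were higher, 16 without overlap (median 1.30, 0 calls), at 29.3 and 43.5 CPM against 68.5, 74.2 and 119 CPM. In flox the 3 medians were 0.77, 0.45 and 0.04, with summed levels of 80.6 to 208, 31.6 to 90.2 and 25.1 to 108 CPM on chow; the KO chow endothelial and stellate sums were below every flox chow library. No marker of these lists was at 0 in all 5 libraries. The 3 lists were small beside 66630 to 118000 CPM of the 20 hepatocyte markers, whose median was -0.06.

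**Figure D4:**
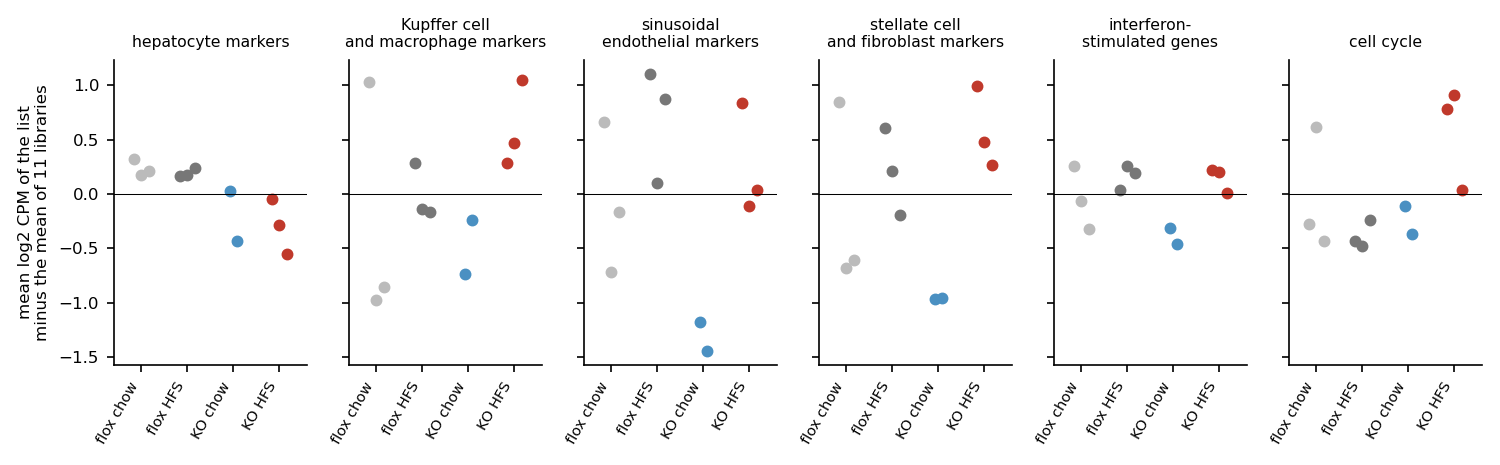
Mean log2 CPM of 6 gene lists in each of the 11 libraries, minus the mean of the 11 libraries, by group. In the macrophage, endothelial and stellate panels the KO HFS libraries (red) all lie above the KO chow libraries (blue), while hepatocyte markers overlap.

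These markers made up 20 of the 153 genes that DESeq2 called higher, 0 of the 60 it called lower and 0 of the 8 edgeR calls. Their part in the interferon, inflammatory, fibrosis and cell cycle values was not tested. *Reln*, a stellate cell glycoprotein, had 3.24 and 2.40 CPM on chow and 22.1, 10.04 and 9.16 CPM on HFS (log2 fold change 2.28, edgeR adjusted p = 0.121, DESeq2 adjusted p = 5.8e-05). *Lrat*, which esterifies retinol in stellate cells, had 0.341 and 0.481 CPM against 3.01, 2.53 and 1.57 CPM. *Flt4*, the endothelial VEGF receptor, had 1.79 and 1.44 CPM against 9.94, 5.65 and 7.51 CPM. In these 3 genes KO HFS 1 was the highest library, as it was in the endothelial and stellate sums. Macrophage genes were highest in KO HFS 3 instead: *Cd5l*, a Kupffer cell scavenger protein, had 4.01 and 6.12 CPM on chow and 11.5, 13.6 and 23.8 CPM on HFS.

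The fibrosis list followed the stellate markers it partly shares, with 13 of 15 tested genes higher, a median of 1.08 and 0 edgeR calls. Of these genes 11 were higher without overlap (73.3%, beside 16.7% of all genes). *Col3a1*, a fibrillar collagen, had 0.384 and 0.524 CPM in KO chow and 4.2, 2.31 and 2.11 CPM in KO HFS (log2 fold change 2.64, edgeR adjusted p = 0.186, DESeq2 adjusted p = 0.00733). *Pdgfa*, a ligand that activates stellate cells, had 4.56 and 4.37 CPM against 6.23, 7.55 and 6.44 CPM. Of 49 inflammatory and NF-kB genes, 28 were higher and 21 lower (median 0.11). Without overlap, 16 were higher (32.7%, beside 16.7% of all genes) and 4 lower (8.16%, beside 14.4%). There were 0 edgeR and 2 DESeq2 calls, where DESeq2 called 1.6% of all genes. *Tsc22d1*, a leucine zipper factor, had 49.96 and 65.4 CPM on chow and 130.3, 206 and 193 CPM on HFS (log2 fold change 1.61, edgeR adjusted p = 0.148). *Stab1*, the other DESeq2 call, is also an endothelial marker. *Tnfaip3*, the A20 inhibitor of NF-kB, had 2.73 and 3.45 CPM against 6.07, 6.88 and 5.83 CPM, higher in each HFS library.

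Cell cycle genes were higher in KO HFS in 29 of 32 cases, 15 without overlap (46.9%, beside 16.7% of all genes). Their median was 1.01 against -0.16 in flox, and 0 passed in either tool. Relative to the 11 libraries, mean log2 CPM of the list was -0.28, 0.62 and -0.43 in flox chow. It was 0.78, 0.91 and 0.04 in KO HFS, so flox chow 2 lay within that range. Scores of the list differed within the KO HFS group, where KO HFS 3 was near the KO chow libraries. *Mcm6*, a replication helicase subunit, had 3.37 and 3.19 CPM on chow and 6.11, 11.2 and 5.83 CPM on HFS. *Aurka*, a mitotic kinase, had 1.96 and 2.14 CPM against 4.44, 4.24 and 2.80 CPM. Complement genes had 23 of 34 higher, 10 without overlap (29.4%, beside the same 16.7%), and a median of 0.16. Among those 10 were *C1qa*, *C1qb* and *C1qc*, which are also in the macrophage list. The macrophage, endothelial and stellate sums given above were higher in every HFS library than in either chow library, with the macrophage sum highest in KO HFS 3.

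Fatty acid genes were higher in part. Of 40 PPAR-alpha and fatty acid oxidation genes, 32 were higher, 15 without overlap (37.5%, beside 16.7% of all genes). Their median was 0.19, with 0 calls in edgeR or DESeq2. *Vnn1*, a PPAR-alpha target, had 81.8 and 86.4 CPM in KO chow and 151, 175 and 172 CPM in KO HFS, and *Ehhadh* of peroxisomal oxidation had 408 and 336 CPM against 612, 560.5 and 535 CPM. Lipogenic genes split, with 10 of 18 higher and a median of 0.14 that moved to 0.59 without KO chow 1 and to -0.16 without KO chow 2. *Scd1*, stearoyl-CoA desaturase, had 1493 and 349.9 CPM on chow and 6634, 3719 and 2870.0 CPM on HFS (log2 fold change 2.26, edgeR adjusted p = 0.186, DESeq2 adjusted p = 0.0118), and flox means were 6788 and 18944 CPM. *Elovl5*, a fatty acid elongase, had 153 and 85.6 CPM against 338, 191 and 227 CPM. Both were higher in every HFS library. *Fabp2*, a fatty acid binding protein, had 35.2 and 27.7 CPM against 108, 84.0 and 75.7 CPM (log2 fold change 1.5, edgeR adjusted p = 0.152), and *Khk*, which phosphorylates dietary fructose, had 431 and 299.8 CPM against 572, 643 and 705 CPM (log2 fold change 0.81, edgeR adjusted p = 0.148, DESeq2 adjusted p = 0.000396).

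Stress genes depended on which chow library was used. The PERK-ATF4-CHOP list had a median of -0.30, with 28 of 37 genes lower and 7 lower without overlap (18.9%, beside 14.4% of all genes), and its median was -0.56 without KO chow 1 and 0.11 without KO chow 2. *Ddit3* had 23.6 and 132 CPM in KO chow and 15.8, 13.5 and 44.5 CPM in KO HFS, so the third HFS library lay between the chow libraries. *Ppp1r15a*, which directs dephosphorylation of eIF2α, did not overlap, at 19.7 and 26.4 CPM against 14.6, 12.1 and 12.7 CPM (log2 fold change -0.81, edgeR adjusted p = 0.107, DESeq2 adjusted p = 0.00254). Of the eIF2α kinases, *Eif2ak2* (log2 fold change 0.51) had no overlap, and *Eif2ak1*, *Eif2ak3* and *Eif2ak4* had -0.05, -0.08 and -0.13. The median of 39 ER chaperone and folding genes was -0.13 (0.18 without KO chow 2), and *Calr*, calreticulin, had 852 and 1724 CPM against 752, 711 and 689 CPM. Acute phase genes went from -0.36 over 28 genes to 0.12 without KO chow 2. Their mean log2 CPM, relative to the 11 libraries, was -0.69 and 0.86 in KO chow. In KO HFS it was -0.69, -0.71 and 0.35, so KO HFS 3 was also apart from its group. Targets of IRE1-dependent decay had a median of 0.28 over 25 genes, which was 0.81 without KO chow 1 and -0.06 without KO chow 2. Of these, 5 were higher without overlap (20%, beside 16.7% of all genes), *Rtn4* among them, while *Ppp1r15b* (0.14) and *Dgat2* (0.14) overlapped. Apoptosis regulators had a median of -0.01 over 40 genes, with *Bbc3*, the BH3 protein PUMA, lower (log2 fold change -0.89) and *Mcl1*, an anti-apoptotic protein, higher (0.39), both without overlap and called by DESeq2 alone.

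**Figure D5:**
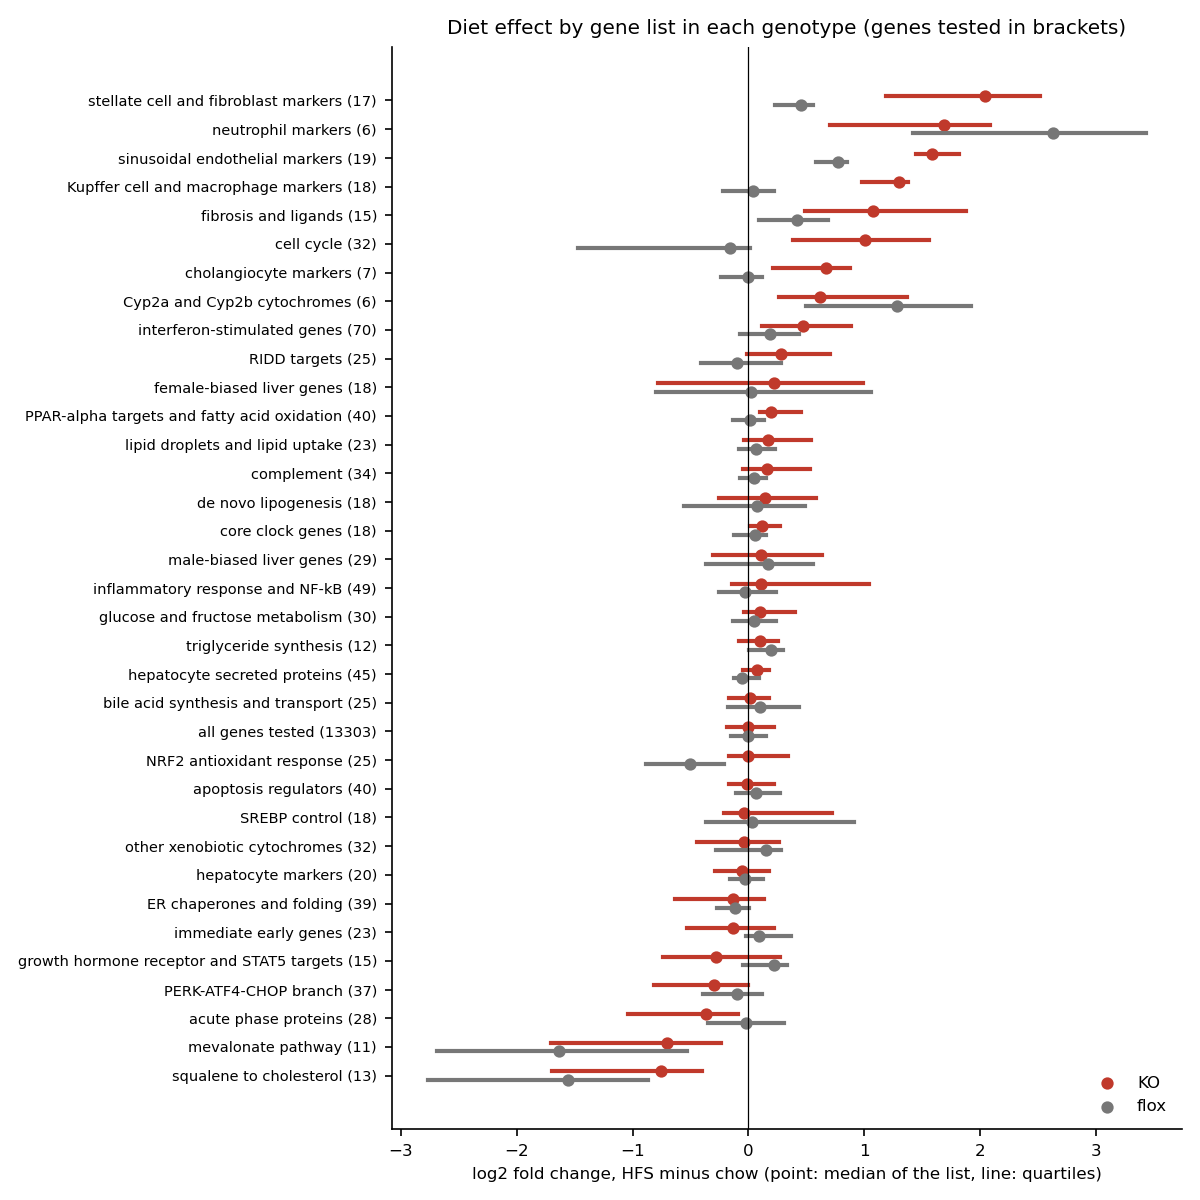
Median (point) and quartiles (line) of the log2 fold change on HFS in KO (red) and flox (grey) for each gene list with at least 6 genes tested, with the number tested in brackets. The sterol lists are lowest in KO at -0.76 and -0.70 and the stellate list is highest at 2.04, while all genes tested centre at 0.

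Among the genes that edgeR did not call, those with an unadjusted p under 0.01, a mean of at least 1 CPM over the KO libraries, no overlap and no provisional name numbered 375. The 8 lowest of them included 4 sterol genes, *Sqle*, *Nsdhl*, *Cyp51* and *Mvd*. The others were *Meg3*, an imprinted long RNA, *Slco1a4*, an organic anion carrier, *Eif4ebp3*, a translation repressor, and *Marveld3*, a tight junction protein. *Meg3* had 60.5 and 49.4 CPM in KO chow, 13.4, 2.79 and 21.9 CPM in KO HFS and under 1 CPM in every flox library. The lower value of *Slco1a4* rested on KO chow 1, with 74.3 and 16.9 CPM on chow and 13.6, 12.6 and 12.2 CPM on HFS, and its log2 fold change went from -1.83 to -0.40 without that library. *Eif4ebp3* had 4.99 and 5.59 CPM against 2.44, 1.34 and 0.805 CPM, and was higher on HFS in flox in mean, 6.55 against 3.98 CPM. The 8 highest of the 375 were *Gramd1b*, *Slc2a4*, *Serpina12*, *Spry4*, *Col3a1*, *Calcrl*, *Colec10* and *Hgf*, from 3.71 down to 2.60 in log2 fold change. *Col3a1* and *Hgf* are in the stellate list. *Serpina12*, the adipokine vaspin, had 4.82 and 10.9 CPM on chow and 77.4, 48.5 and 53.0 CPM on HFS, the smallest unadjusted p of these (edgeR adjusted p = 0.0727, DESeq2 adjusted p = 2.6e-09). *Gramd1b*, a carrier of cholesterol from the plasma membrane to the ER, had 0.128 and 0.349 CPM against 4.40, 4.61 and 0.537 CPM, so KO HFS 3 was close to chow. *Slc2a4*, the insulin-responsive glucose carrier GLUT4, was at 1.32 and 0 CPM in KO chow and 5.09, 10.3 and 2.22 CPM in KO HFS. Its log2 fold change of 3.13 was 2.15 without KO chow 2, and without KO chow 1 no fold is given since the remaining chow library is at 0. That of *Spry4*, an inhibitor of growth factor signalling, was 2.67, 4.15 without KO chow 1 and 1.97 without KO chow 2.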

How the data were processed

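The authors deposited raw read counts per Ensembl gene, as whole numbers, for each library. The submitters' processing notes name cutadapt 1.13, STAR, HTSeq 0.6.1p1, DESeq2 and mm10, whereas the paper's methods name kallisto and tximport; which route gave the counts is not settled, and neither is whether counting used strand. Of 54232 identifiers, 54165 were found in GENCODE M21 (GRCm38), used for symbols and positions. Groups came from the sample titles, and each library is a separate mouse or pool of mice. The paper gives n = 3 for its chow-fed groups, whereas the series holds 2 KO chow libraries. The library titled KO chow 2 carries the number 3 in its file name.

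Counts were normalized by TMM (edgeR 4.0.16, R 4.3.3), filtered with filterByExpr (minimum count 10) and fitted with edgeR's quasi-likelihood model of the 4 groups over all 11 libraries. Adjusted p (Benjamini-Hochberg) under 0.05 was called. The standard error is the log2 fold change over the square root of F. Total counts were 19191032 to 23888401; replicate spread exceeded counting error. A single-gene exact permutation test of 3 libraries against 2 cannot go below p = 0.1, so none was used. DESeq2 1.42.0, limma 3.58.1, other scalings and filters, replicate blocks and single libraries left out were alternatives. On simulated counts for the KO contrast (13025 genes, 100 changed 2-fold and 100 changed 4-fold), edgeR recovered 73 and 98 with 10 false calls, and DESeq2 82 and 99 with 34. With fewer changed genes the adjusted threshold is stricter, so these shares need not hold for the deposited counts.

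The 36 gene lists and the members were chosen with earlier results of these data known, and lists are described by counts and medians without a test. Genes named are all called genes with their paralogs, the 8 largest differences in each direction under the rule given in the text, the 3 smallest p in each list described, the sterol, SREBP and Cyp2a/Cyp2b lists, the 5 smallest interaction p, and genes the study names. *Psme1*, *Irf8* and genes given under the other observations were added after their values were seen. Values of a few listed genes are not reported here, though list counts and medians include them. Promoter sequences are from RefSeq (GRCm38.p6).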

Additional observations from a re-analysis of the deposited data

Results flagged for a closer look

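For 12 named genes the effect of the HFS diet in KO hepatocytes differed from that in flox hepatocytes in DESeq2's test of the interaction (adjusted p under 0.05), whereas edgeR (quasi-likelihood, Benjamini-Hochberg) called 0 genes for it (816 at an unadjusted p under 0.05). The values are the diet effect in KO minus that in flox, in log2 units. *Tent5a* had the smallest p, at 2.25 (DESeq2 adjusted p = 3.1e-07, edgeR adjusted p = 0.0848), with 1.97 in KO and -0.28 in flox. For the other 11 genes DESeq2 adjusted p was 0.000884 to 0.0349 and edgeR adjusted p 0.491 to 0.603. *Cyp2a4* was at 2.87, *Rtn4* at 0.96 and *Serpina12* at 2.29. For these 4 genes the diet effect was positive in KO and larger than in flox. They were named for their calls or large differences in KO, which favours such values.

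*Hmgcs1* at 1.86 and *Fdft1* at 1.36 were the sterol genes in this set: both were lower on HFS in each genotype in mean, and less so in KO (-0.70 against -2.56, and -0.20 against -1.56). *Ifi27*, the interferon-induced gene, was at 1.05. *Eif4ebp3*, the translation repressor, was at -2.51, with -1.79 in KO and 0.72 in flox. The remaining 4 had small effects of opposite sign in the genotypes: *Ginm1*, a membrane glycoprotein, at -0.92, *Zfp750*, a zinc finger factor, at 1.4, *Dirc2*, a lysosomal carrier, at -0.72, and *Cars*, cysteinyl-tRNA synthetase, at 0.69. *Zfp750* had 3.33 and 5.64 CPM in KO chow and 8.80, 6.92 and 7.78 CPM in KO HFS, against means of 19 and 12.6 CPM in flox chow and flox HFS. *Cars* had 25.4 and 24.2 CPM in KO chow and 30.5, 30.5 and 30.1 CPM in KO HFS, so its libraries were tight within groups.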

How the results depend on the processing

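The 8 calls in KO were also made with RLE size factors and with a filter at 1 CPM. With library totals edgeR called 10, of which 6 were higher and 4 lower, in place of 6 and 2. DESeq2 called 213 genes in KO, 181 in flox and 29 for the interaction, and with no filter on low counts edgeR called 722, 499 and 269. In KO, limma voom called 1 (*Rtn4*), a test against a minimum fold of 1.5 called 0 and a fit of the KO libraries alone 0, and in flox the minimum fold left 12. Leaving out 1 library gave 0 to 36 calls in KO, 6 to 43 in flox and 0 for the interaction. The cause of these shifts was not tested. With the replicate block, calls in KO were 19 by title numbers, 7 of them shared with the 8, and 53 by file numbers, 8 shared. Same-numbered KO libraries correlated at 0.164 and -0.103 by title and at 0.164 and 0.249 by file number, and flox libraries at -0.175 to 0.014. Since they come from different mice, the numbers were not taken to pair them. Over 2683 values of 180 named genes under alternatives, 0 reversed a call and 164 gained one, while the 8 called genes lost theirs in 54 of 120. Of 252 list medians under alternatives, 30 moved beyond the replicate spread and 25 changed sign, 1 of them under a change of scaling. At this depth and number of libraries edgeR recovered 73 of 100 simulated 2-fold changes in KO, and smaller ones were not simulated. The simulated counts held more changed genes than the 8 called here, which makes the Benjamini-Hochberg threshold less strict. The recovered share therefore need not hold for these data. Here *Sqle* at 6.09-fold and *Serpina12* at 7.6-fold were not called by edgeR.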

Other observations

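Other cytochromes and transporters had values in both directions. *Cyp3a59* had 44.1 and 43.9 CPM in KO chow and 14, 17.1 and 9.39 CPM in KO HFS, lower in every HFS library (log2 fold change -1.71, edgeR adjusted p = 0.152, DESeq2 adjusted p = 0.00159), and in flox it passed in edgeR at -1.85 (adjusted p = 0.0489). *Cyp2c69*, a female-biased cytochrome, had 0.469 and 1.70 CPM against 0.0407, 0.112 and 0.0767 CPM. *Nr0b2*, the bile acid responsive repressor SHP, had 8.66 and 24.7 CPM on chow and 34.9, 37.8 and 46 CPM on HFS, while *Cyp7a1*, the rate-limiting enzyme of bile acid synthesis, overlapped (log2 fold change -0.06). Of 25 bile acid genes 8 were higher and 4 lower without overlap (median 0.01, and -0.03 with library totals), and of 32 other xenobiotic cytochromes 5 and 8 (median -0.04), beside 16.7% and 14.4% of all genes.

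Several signalling, clock and secreted genes varied widely between libraries of 1 group, whereas *Dusp6* and *Mup20* were higher in every HFS library. *Myc* had 53.2 and 42.6 CPM in KO chow and 26.0, 5.62 and 5.90 CPM in KO HFS, against means of 5.91 and 8.12 CPM in flox chow and flox HFS (log2 fold change in KO -1.94, edgeR adjusted p = 0.314). *Dusp6*, a phosphatase that restrains ERK, had 36.9 and 27.1 CPM against 80.3, 77.3 and 114 CPM (edgeR adjusted p = 0.211, DESeq2 adjusted p = 0.0132). *Arntl*, the clock factor BMAL1, had 1.92 and 15.7 CPM in KO chow and 2.12, 1.90 and 3.76 CPM in KO HFS, so KO chow 2 stood alone. *Lcn2*, an acute phase and neutrophil protein, had 3.71 and 243 CPM in KO chow and 10.1, 11.6 and 145.5 CPM in KO HFS, while *S100a9* of neutrophils stayed at 2.22 CPM or below. The major urinary protein *Mup20* had 720 and 466 CPM against 2387, 1524 and 1089 CPM.

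Of the lists not described above, the median log2 fold change in KO was 0.10 for triglyceride synthesis (12 genes tested), 0.17 for lipid droplets and lipid uptake (23), 0.10 for glucose and fructose metabolism (30), 0.11 for male-biased (29) and 0.22 for female-biased liver genes (18), 0.08 for secreted hepatocyte proteins (45), 0.12 for core clock genes (18) and -0.13 for immediate early genes (23). It was -0.28 for the growth hormone receptor and STAT5 targets (15), against 0.22 in flox, and -0.01 for the NRF2 antioxidant response (25), against -0.51 in flox. These differences between genotypes were not tested. Small marker lists were at 0.66 for cholangiocytes (7), 0.81 for lymphocytes and dendritic cells (4), 1.69 for neutrophils (6) and 0.19 for erythroid cells (2). Higher without overlap were 1, 2, 0 and 0 of them, beside 16.7% of all genes. Among the neutrophil markers *Lcn2* was lower (-1.15), and the cholangiocyte markers *Krt7*, *Krt19* and *Epcam* were not tested. The median over all genes was -0.0027.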
